A study of Arabidopsis thaliana with 9 samples.

Results

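Transcript levels were compared between Arabidopsis thaliana seedlings that overexpress the long noncoding RNA ASCO (35S-ASCO) and wild-type (WT) seedlings. The comparison was defined by genotype label and covers 6 of the 9 libraries of the series, 3 from 35S-ASCO and 3 from WT. The other 3 libraries, labelled RNAi-ASCO, entered the fit to estimate the spread between replicates and are not described here. Of these, 2 are labelled 4 days and 1 is labelled 16 days. With the 6 libraries alone 64 genes were called in place of 379. Leaving out only the 2 labelled 4 days amounts to the same fit, since 1 library without a replicate adds nothing to the spread. The part of age was thus not tested. All 6 seedling samples carry the same labels for age (16 days), Boyes growth stage (1.04), tissue (seedling) and growth (in vitro). The 35S-ASCO genotype is labelled as an overexpressor of AT1G67105. The 35S of its name is a viral promoter that drives strong expression in most plant cells. The same field also carries the words promoter trap, and the labels do not say what this means here, how many transgenic lines were sampled, how many seedlings were pooled, or the hour of harvest. Polyadenylated RNA was sequenced as stranded read pairs. The series names 3 biological replicates a genotype without saying whether they were separate sowings, so the p-values below measure the spread between these libraries.

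ASCO is a noncoding transcript known to bind RNA-binding proteins of nuclear speckles and core parts of the spliceosome in Arabidopsis, and to change the splicing of other transcripts when its level is altered. The deposited counts are totals for each gene, so they measure transcript levels and not splicing. The series title concerns splicing, and the comparison of normal with transgenic plants named in its design is the one described here. In RNA from whole tissue a lower level cannot be told apart from fewer cells of the type that makes the transcript.

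AT1G67105, the transgene's gene, was examined first because it checks the labels. It lies on the forward strand of chromosome 1, at chr1:25057479-25058264 in the RefSeq annotation of TAIR10.1, as a noncoding RNA gene of 786 bases. Its level was 3539, 3657 and 3653 CPM (read pairs scaled to library size) in the 3 libraries of 35S-ASCO, against 6.54, 3.65 and 2.48 CPM in WT. The means were 3616 ± 67.1 CPM in 35S-ASCO and 4.22 ± 2.09 CPM in WT (SD, n = 3 each), a log2 fold change of 9.84 (SE 0.316, adjusted p = 7.02e-07 by edgeR's quasi-likelihood test with Benjamini-Hochberg adjustment). Every library of the overexpressor was thus far above every WT library. The flanking gene CYP735A2, a cytokinin hydroxylase, had 2.66, 3.9 and 3.81 CPM in 35S-ASCO and 4.04, 6.24 and 10.1 CPM in WT, and it did not pass the test (adjusted p = 0.121).

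The libraries held 126355312, 36087905 and 92893834 counted pairs in 35S-ASCO and 27044702, 91794393 and 57771449 in WT, so that 3 pairs, taken as the floor, correspond to between 0.0237 and 0.111 CPM (counting error only). Libraries of the same genotype were not much closer to each other than libraries of different genotypes. Euclidean distances over log2 CPM were 40.6 to 55.7 within 35S-ASCO, 47.7 to 65.7 within WT and 44.6 to 84 between the genotypes, the smallest of these between replicate 3 of 35S-ASCO and replicate 2 of WT. Of 16 root marker genes and 14 tested shoot and leaf marker genes none was called, and their median log2 fold changes were -0.06 and -0.07. No root marker reached an unadjusted p of 0.05 and 2 shoot markers did, while DESeq2 called 0 of either list. The seedling label was met by both lists, for instance by the root gene SCR (36.2 to 40.5 CPM in 35S-ASCO, 40.3 to 47.4 in WT) and the leaf gene RCA (3102 to 3391 CPM in 35S-ASCO, 3023 to 3708 in WT). Of 12 seed and flower markers, only 3 had enough pairs to be tested and 0 were called (2 at an unadjusted p under 0.05, 0 by DESeq2). The seed storage gene CRU3 had 0 pairs in all 6 libraries.

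Overexpression went with more increases than decreases. Of 22719 genes tested, 379 (1.67%) passed an adjusted p of 0.05 (edgeR quasi-likelihood test, as for all calls below), 308 of them higher in 35S-ASCO (1.36%) and 71 lower (0.313%). The changes were mostly modest, with a median absolute log2 fold change of 0.611 among the called genes, and 372 of the 379 are protein coding. The median over all genes tested was -0.007, with 10880 of 22719 positive. In the 379 genes the 3 values of 35S-ASCO did not overlap the 3 values of WT, which was so for 4966 (21.9%) of all genes tested. Of the 308 higher genes, 185 had their highest value in replicate 1 of 35S-ASCO, 98 in replicate 2 and 25 in replicate 3.

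The number of calls depended on which libraries were in the fit. With the 6 libraries alone, which leaves fewer degrees of freedom for the spread, 64 of 22824 genes (0.28%) passed, and 61 of these were among the 379. Leaving out single libraries gave 112 calls without replicate 1 of 35S-ASCO, 26 without its replicate 2 and 611 without its replicate 3. It gave 25 without WT replicate 1, 498 without WT replicate 2 and 97 without RNAi-ASCO replicate 2. Besides AT1G67105, 17 genes passed in all 9 fits that left out 1 library. They include 7 genes of the sulfur list (AT1G04770, LSU2, LSU3, SDI1, APR1, APR3 and SHM7), the jasmonate synthesis gene AOS, the clock gene GI, the cytochrome P450 gene CYP71B24, the squalene epoxidase gene SQP1, the sugar transporter-like gene ESL1 and the flagellin receptor gene FLS2. The other 4 are AT1G61890, a MATE efflux family gene, AT1G31550, a GDSL-like lipase gene, AT1G09980, a putative serine esterase gene, and AT4G16870, a pseudogene of uncharacterized product. FLS2 and AT1G09980 were lower in 35S-ASCO and the other 15 were higher.

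**Figure D1:**
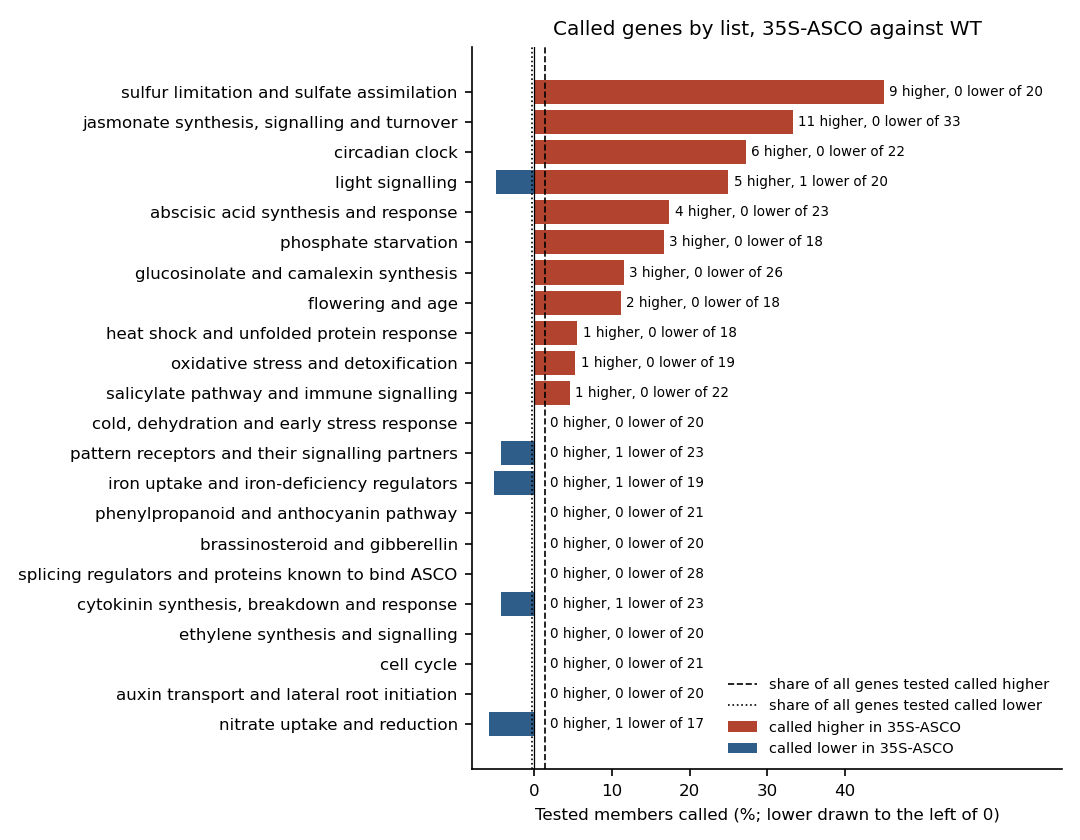
Share of tested members called higher (right of 0) or lower (left of 0) in 35S-ASCO against WT, in percent, for 22 gene lists, with the counts printed beside each bar. The dashed line marks the 1.36% of all genes tested that were called higher and the dotted line the 0.313% called lower. Sulfur limitation (9 of 20), jasmonate (11 of 33), the circadian clock (6 of 22) and light signalling (5 of 20) reach furthest to the right.

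Genes of the response to sulfur limitation were the group with the largest share of calls. Plants take up sulfate through SULTR transporters, activate it, and reduce it through APS reductase (APR) before it enters cysteine. When sulfur runs short, small LSU proteins and the SDI proteins, which repress glucosinolate synthesis, accumulate. Of the 20 genes of the list, all tested, 9 rose in 35S-ASCO and 0 fell, against 1.36% of all genes called higher. Over its 20 members the median was 0.65 on the log2 scale, and 15 were positive. With the 6 libraries alone 7 passed, and fits without 1 library called between 7 and 9.

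The small LSU genes and SDI1 rose most. LSU3 had 25.4, 19.3 and 20.4 CPM in 35S-ASCO, against 5.73, 5.47 and 3.84 CPM in WT (log2 fold change 2.13, SE 0.154, adjusted p = 0.000617). Its lowest value in 35S-ASCO was more than 3 times its highest in WT. SDI1 had 51.5, 48.5 and 62.5 CPM in 35S-ASCO, against 17.1, 15.5 and 9.24 CPM in WT (log2 fold change 1.97, SE 0.218, adjusted p = 0.00613). LSU2 was nearly the same in the 3 overexpressor libraries, between 23.4 and 23.8 CPM, against 10, 10.9 and 7 CPM in WT (1.34, SE 0.131, adjusted p = 0.00317). WT replicate 3 was the lowest library for all of these, and for LSU1 it stood apart, since LSU1 had 27.9, 24.9 and 22.5 CPM in 35S-ASCO and 10.3, 12.6 and 4.05 CPM in WT (1.48, adjusted p = 0.0456). The call of LSU1 was lost in 7 of the 9 fits without 1 library, and it held without WT replicate 2 or 3. AT1G04770, a tetratricopeptide repeat gene, had 91, 76.2 and 71.3 CPM in 35S-ASCO, against 31.4, 31.6 and 33.2 CPM in WT (1.31, SE 0.0817, adjusted p = 0.000227), and 27.4% of its exon bases lie under an exon of the opposite strand, whose reads the counter may or may not have kept apart.

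All 3 APS reductase genes rose, while the enzymes on either side of that step did not pass. APR1 had 243, 209 and 194 CPM in 35S-ASCO, against 101, 96.2 and 109 CPM in WT (log2 fold change 1.08, SE 0.0826, adjusted p = 0.000651). APR3 had 434, 374 and 410 CPM in 35S-ASCO, against 275, 242 and 276 CPM in WT (0.62, SE 0.0729, adjusted p = 0.00969). APR2 had 218, 228 and 226 CPM in 35S-ASCO, against 135, 114 and 168 CPM in WT (0.69, adjusted p = 0.0277). The groups did not overlap for any of the 3, as for every called gene. The call of APR2 was lost without replicate 1 or 2 of 35S-ASCO, RNAi-ASCO replicate 2 or WT replicate 1, and 46.4% of its exon bases lie under an opposite-strand exon. ATP sulfurylase APS1, which acts before APR, had 382 to 398 CPM in 35S-ASCO and 333 to 415 CPM in WT (0.08, adjusted p = 0.651). Sulfite reductase SIR, which acts after it, had 315 to 358 CPM in 35S-ASCO and 282 to 408 CPM in WT (-0.05, adjusted p = 0.882). SHM7, a serine hydroxymethyltransferase-like gene known to respond to sulfur limitation, had 208, 185 and 191 CPM in 35S-ASCO, against 78.8, 76.6 and 97.3 CPM in WT (1.21, SE 0.0963, adjusted p = 0.000792).

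None of the sulfate transporters on the list passed. SULTR1;2, the main uptake transporter of the root, had 81.3, 129 and 123 CPM in 35S-ASCO, against 147, 149 and 141 CPM in WT (log2 fold change -0.40, adjusted p = 0.177). SULTR1;1, which is induced strongly when sulfate is scarce, had 1.31, 0.757 and 0.604 CPM in 35S-ASCO and 0.771, 0.689 and 2.19 CPM in WT (-0.43, adjusted p = 0.662). Outside the list, SULTR3;1 had a log2 fold change of 0.32 (adjusted p = 0.0631). The factor EIL3 (also SLIM1), known to drive the sulfur limitation response, did not pass either (-0.05, adjusted p = 0.641). A pair of further marker genes of sulfur limitation had positive values without passing. GGCT2;1, which breaks down glutathione, had 24.9, 25.8 and 44 CPM in 35S-ASCO and 18.7, 13.9 and 12.8 CPM in WT (1.08, adjusted p = 0.0515), and BGLU28, a beta-glucosidase, had a log2 fold change of 1.01 (adjusted p = 0.198). Among called genes outside the list, named here after their values were seen, the APS kinase gene APK had 96.6, 86.3 and 84.1 CPM in 35S-ASCO, against 64.7, 67 and 74 CPM in WT (0.38, adjusted p = 0.0369). Methionine gamma-lyase MGL (0.70, adjusted p = 0.0294) and the sulfurtransferase STR18 (0.64, adjusted p = 0.0155) rose as well.

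**Figure D2:**
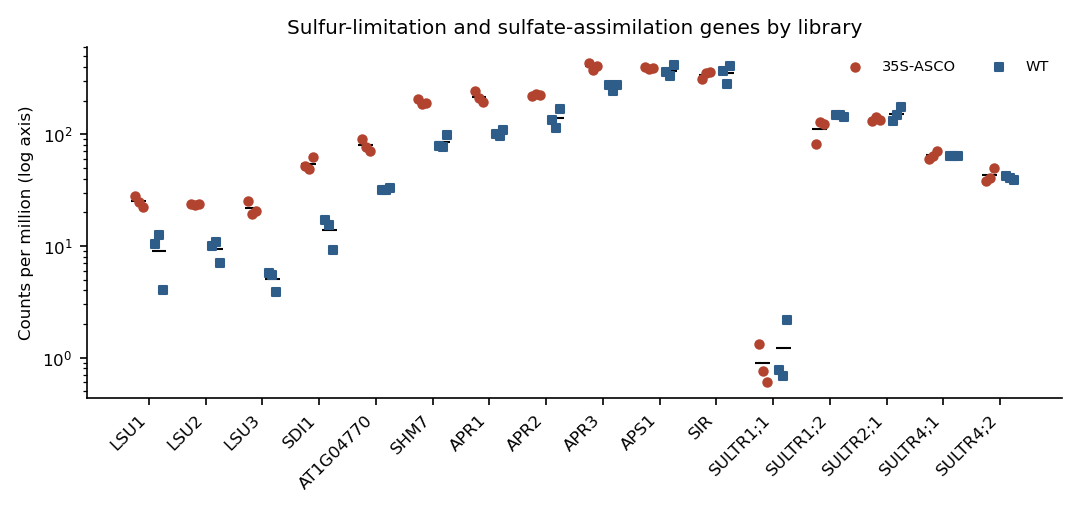
Level in each library, in CPM on a log axis, of 16 of the 20 sulfur genes, with 35S-ASCO (circles) left of WT (squares) for each gene and a short bar at the group mean of 3 libraries. Levels are not corrected for gene length, so they compare libraries and not genes. From LSU1 to APR3 the circles lie above the squares, and from APS1 to SULTR4;2 the groups overlap or the circles lie lower.

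Jasmonate genes were the second group. Jasmonate is a wound and defence hormone made from linolenic acid by lipoxygenase (LOX), allene oxide synthase (AOS), allene oxide cyclase (AOC) and OPDA reductase (OPR3). Its active conjugate makes COI1 remove the JAZ repressors, which frees MYC transcription factors, and MYC factors in turn raise the transcripts of synthesis genes and of the JAZ repressors themselves. Of 33 tested genes, 11 rose in 35S-ASCO and 0 fell, against 1.36% of all genes called higher. The median log2 fold change was 0.68 and 32 of 33 were positive. With the 6 libraries alone 5 passed. Leaving out WT replicate 1 left 1 call and leaving out replicate 2 of 35S-ASCO left 2. The count was 7 without WT replicate 2 or RNAi-ASCO replicate 2, 8 without replicate 1 of 35S-ASCO, and 13 without replicate 3 of 35S-ASCO or WT replicate 3.

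Calls among synthesis genes began with AOS. AOS had 286, 277 and 268 CPM in 35S-ASCO, against 166, 160 and 181 CPM in WT (log2 fold change 0.71, SE 0.0789, adjusted p = 0.00613), and this was the jasmonate gene that passed in every fit without 1 library. AOC1 had 96, 69 and 83 CPM in 35S-ASCO, against 38.7, 35 and 45.1 CPM in WT (1.07, SE 0.134, adjusted p = 0.0124). AOC2, its neighbour on chromosome 3, had 360, 358 and 404 CPM in 35S-ASCO, against 226, 233 and 229 CPM in WT (0.71, SE 0.0973, adjusted p = 0.0155). AOC3 (0.27, adjusted p = 0.0801) and AOC4 (0.18, adjusted p = 0.0961) did not pass. OPR3 had 103, 72 and 75.7 CPM in 35S-ASCO, against 52.7, 49 and 55.6 CPM in WT (0.68, adjusted p = 0.0313). OPCL1, which activates the precursor for shortening in the peroxisome, had 71, 53.5 and 38.4 CPM in 35S-ASCO, against 23, 23.1 and 29 CPM in WT (1.12, adjusted p = 0.0274). Replicate 1 of 35S-ASCO was the highest library for both. Of the lipoxygenases that open the pathway none passed, with LOX2 at 1141, 1437 and 1684 CPM in 35S-ASCO and 1080, 1132 and 820 CPM in WT (0.49, adjusted p = 0.212). LOX4 had 34.2, 13.3 and 9.42 CPM in 35S-ASCO and 3.31, 2.21 and 6.9 CPM in WT (2.21, adjusted p = 0.0683).

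The receptor gene COI1 did not pass, whereas 4 repressor genes rose. COI1, the receptor's F-box protein, had 40.3 to 47.9 CPM in 35S-ASCO and 38.6 to 41.1 CPM in WT (log2 fold change 0.12, adjusted p = 0.444). MYC2, the best known of the MYC factors, had 122, 67.6 and 56.9 CPM in 35S-ASCO, against 34.2, 31.8 and 40.7 CPM in WT. The groups did not overlap, as in 21.9% of all genes tested. The spread within 35S-ASCO was wide and MYC2 missed the threshold (1.21, SE 0.268, adjusted p = 0.0558). Among the repressors, JAZ6 had 131, 133 and 106 CPM in 35S-ASCO, against 37.1, 36.9 and 59.5 CPM in WT (1.47, SE 0.18, adjusted p = 0.0112). JAZ5 had 7.42, 4.09 and 2.82 CPM in 35S-ASCO, against 0.771, 1.07 and 1.15 CPM in WT (2.23, SE 0.331, adjusted p = 0.0184). JAZ1 (1.01, adjusted p = 0.0364) and JAZ2 (0.70, adjusted p = 0.0395) rose too, but their calls were lost in 8 and 7 of the 9 fits without 1 library. JAZ7 had 4.57, 11.3 and 8.34 CPM in 35S-ASCO and 0.477, 0.498 and 2.66 CPM in WT (2.68, adjusted p = 0.053), and JAZ9 had a log2 fold change of 1.36 (adjusted p = 0.0669). CYP94C1, which inactivates the hormone by oxidation, rose on the turnover side, with 3.42, 3.64 and 2.83 CPM in 35S-ASCO and 1.54, 1.73 and 1.89 CPM in WT (0.92, adjusted p = 0.019).

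ORA47, an ERF-type transcription factor known to activate jasmonate synthesis genes, had the largest increase of any named gene after AT1G67105. It had 12.5, 6.11 and 3.26 CPM in 35S-ASCO, against 0.367, 0.297 and 0.625 CPM in WT (log2 fold change 4.11, SE 0.661, adjusted p = 0.0241). Its values did not overlap between the genotypes, as in every called gene, while the overexpressor libraries themselves spread widely. The call was lost without replicate 2 of 35S-ASCO, WT replicate 1 or WT replicate 2. The wound and herbivory marker VSP2 had 47.8, 39.5 and 30.1 CPM in 35S-ASCO and 18.3, 24.5 and 10.3 CPM in WT (1.14, adjusted p = 0.0847), and VSP1 did not pass (0.50, adjusted p = 0.113).

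The G-box CACGTG is the letter string that MYC factors and other bHLH and bZIP proteins are known to bind. It was searched on both strands, on which it reads the same, in the 300 bases before each annotated start. It was present in 39 of the 308 windows of called higher genes (12.7%), in 1 of 71 of called lower genes (1.41%), and in 7.78% of the windows of all genes tested. Among the 11 called jasmonate genes 2 held it, AOS and JAZ2, and among the 9 called sulfur genes LSU3 held it. Their windows, read from the TAIR10.1 genome and written 5′ to 3′ on the gene's strand with the G-box in capitals, show where the string falls. AOS is at chr5:17099596-17099895, JAZ2 at chr1:28150447-28150746 and LSU3 at chr3:18373148-18373447, each on the reverse strand. A match says only that the letters are there.
AOS: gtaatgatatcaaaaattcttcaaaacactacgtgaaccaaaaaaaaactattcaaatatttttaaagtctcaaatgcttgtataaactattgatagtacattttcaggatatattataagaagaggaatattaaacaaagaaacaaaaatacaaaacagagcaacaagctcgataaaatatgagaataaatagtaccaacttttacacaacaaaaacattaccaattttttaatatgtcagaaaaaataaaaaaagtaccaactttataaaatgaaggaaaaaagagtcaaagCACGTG
JAZ2: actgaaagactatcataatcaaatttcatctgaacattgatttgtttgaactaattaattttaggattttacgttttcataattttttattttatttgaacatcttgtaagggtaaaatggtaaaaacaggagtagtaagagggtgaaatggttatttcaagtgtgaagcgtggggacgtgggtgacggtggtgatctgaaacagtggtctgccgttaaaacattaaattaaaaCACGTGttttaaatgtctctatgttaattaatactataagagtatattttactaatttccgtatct
LSU3: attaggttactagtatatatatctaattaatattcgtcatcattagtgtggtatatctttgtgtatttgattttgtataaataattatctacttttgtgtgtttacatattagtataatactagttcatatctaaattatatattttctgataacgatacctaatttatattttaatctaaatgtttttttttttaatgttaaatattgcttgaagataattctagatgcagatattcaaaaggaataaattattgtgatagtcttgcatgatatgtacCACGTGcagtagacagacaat
The G-box of AOS ends at the base next to the annotated start, that of LSU3 lies 16 bases before the start, and that of JAZ2 61 bases before it. The string GAGAC, the core of a sulfur-responsive element, was held by 1 of the 9 called sulfur genes (SDI1) and by 30% of all genes tested.

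**Figure D3:**
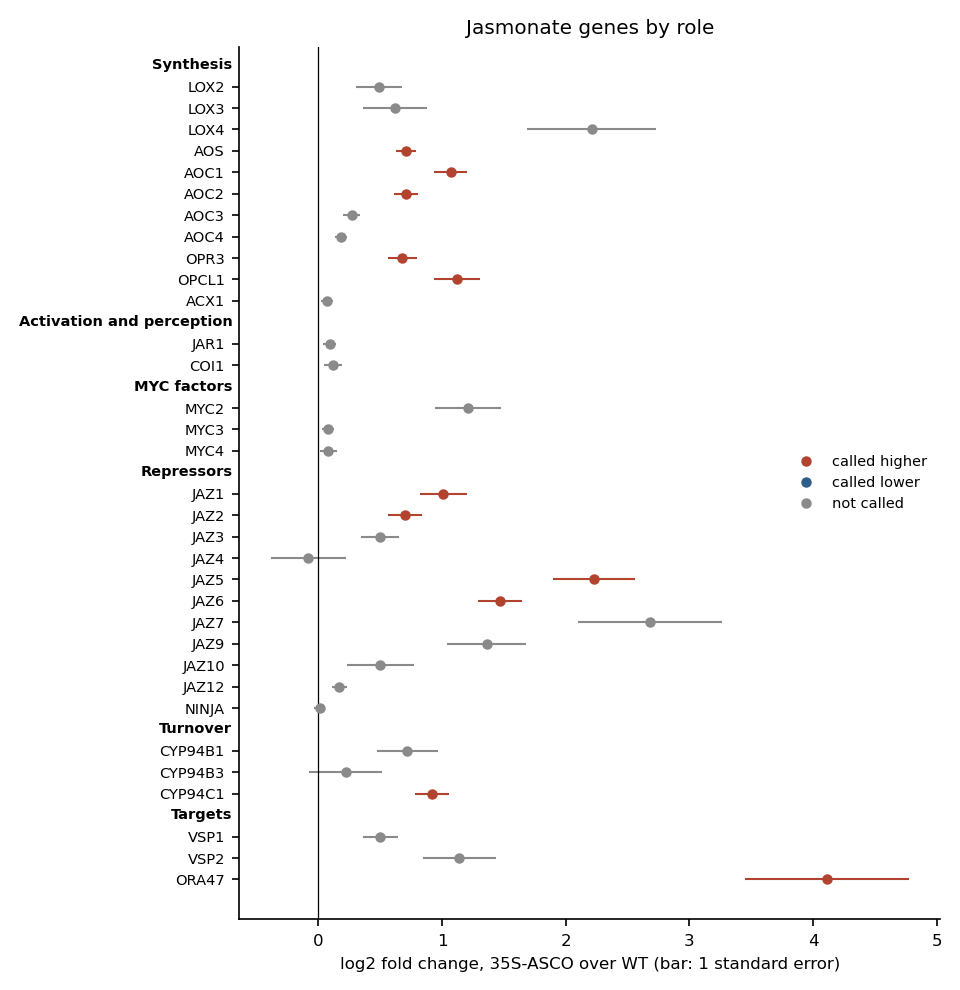
Log2 fold change of each tested jasmonate gene, 35S-ASCO over WT, with a bar of 1 standard error to each side, grouped by role in the pathway. Red points passed an adjusted p of 0.05 and grey points did not. The 11 red points are all right of 0 and spread over synthesis, repressors, turnover and targets.

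Other ethylene-response-factor genes rose beside ORA47, with no call among ethylene genes proper. Of 50 tested genes of the ERF, DREB and CBF family, 4 rose and 1 fell, against 1.36% and 0.313% of all genes. The 6 libraries alone gave 2 increases, and 0 rose without replicate 2 of 35S-ASCO or WT replicate 1, and 7 without replicate 3 of 35S-ASCO. ERF2 had 60.5, 46 and 29.5 CPM in 35S-ASCO, against 13.8, 18.1 and 16.2 CPM in WT (log2 fold change 1.49, SE 0.226, adjusted p = 0.019). ERF-1 (AT4G17500) had 44.8, 41.9 and 25.9 CPM in 35S-ASCO, against 14.2, 14.1 and 17.1 CPM in WT (1.31, adjusted p = 0.0241). RRTF1, a redox-responsive factor, had 1.27, 0.869 and 0.475 CPM in 35S-ASCO, against 0.0367, 0.0848 and 0.0347 CPM in WT (adjusted p = 0.02). Its WT values rest on 1, 8 and 2 pairs, and 64% of its exon bases lie under exons of the opposite strand. The member that fell was RAP2.9, at 0.902, 0.813 and 0.712 CPM in 35S-ASCO and 2.28, 1.64 and 1.65 CPM in WT (-1.17, adjusted p = 0.0369). Its call was lost in 6 of the 9 fits without 1 library. Of the 20 genes of ethylene synthesis and signalling 0 were called. 5 of them reached an unadjusted p of 0.05 and DESeq2 called 3. The list's median was -0.04. ERF2, ERF-1, ORA47 and RRTF1 were all highest in replicate 1 of 35S-ASCO and lowest in its replicate 3.

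Circadian clock genes also held a large share of calls. The plant clock is a set of regulators, many of them repressors, expressed in turn through the day. They include the MYB-like CCA1 and LHY near dawn and the pseudo-response regulators PRR9, PRR7 and PRR5 through the day. TOC1, GI and the evening complex (ELF3, ELF4, LUX) follow towards dusk. Of 22 tested genes 6 rose in 35S-ASCO and 0 fell, against 1.36% of all genes called higher, and 22 of 22 values were positive with a median of 0.40. With the 6 libraries alone 3 passed (GI, ELF4 and LNK1). Without replicate 2 of 35S-ASCO or without WT replicate 1 only 1 was called (GI), and without replicate 1 of 35S-ASCO or RNAi-ASCO replicate 2 there were 4. The hour of harvest is not given in the labels, and its part in these values was not tested.

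GI, which links the clock to flowering and is expressed late in the day, had 40.4, 32.5 and 27 CPM in 35S-ASCO, against 13.7, 10.2 and 10.9 CPM in WT (log2 fold change 1.54, SE 0.171, adjusted p = 0.00613). PRR7, a daytime repressor, had 54.5, 39.4 and 32.7 CPM in 35S-ASCO, against 20.1, 16.1 and 19.1 CPM in WT (1.20, SE 0.171, adjusted p = 0.0163). Both genes were highest in replicate 1 and lowest in replicate 3 of 35S-ASCO. ELF4, of the evening complex, had 53, 54 and 48.8 CPM in 35S-ASCO, against 38.4, 35.6 and 33.1 CPM in WT (0.54, SE 0.0798, adjusted p = 0.0184). TOC1, an evening repressor, had 282, 250 and 245 CPM in 35S-ASCO, against 193, 192 and 204 CPM in WT (0.40, SE 0.0587, adjusted p = 0.0184). LNK1 and LNK2, coactivators that work with MYB-like factors, had log2 fold changes of 1.18 (adjusted p = 0.0274) and 0.77 (adjusted p = 0.0425). CCA1 had 4.17, 1.79 and 0.949 CPM in 35S-ASCO and 0.955, 0.657 and 0.643 CPM in WT, a log2 fold change of 1.70 that did not pass (SE 0.478, adjusted p = 0.106), with overlapping groups and replicate 1 of 35S-ASCO highest. LHY had 1.7 to 2.91 CPM in 35S-ASCO and 1.7 to 1.8 CPM in WT (0.31, adjusted p = 0.491).

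Evening-expressed genes are known to carry the evening element AAATATCT, which MYB-like clock factors bind. It was searched on both strands in the same windows. It was present in 33 of the 308 windows of called higher genes (10.7%), in 8.45% of those of called lower genes, in 5.67% of those of all genes tested and in 5.16% of all 37878 windows. Of the 6 called clock genes 2 held it, and the window of TOC1 is shown as an example. It is at chr5:24674663-24674962 on the forward strand of TAIR10.1, written 5′ to 3′, and capitals mark the element, here read as its complement on the other strand (AGATATTT).
TOC1: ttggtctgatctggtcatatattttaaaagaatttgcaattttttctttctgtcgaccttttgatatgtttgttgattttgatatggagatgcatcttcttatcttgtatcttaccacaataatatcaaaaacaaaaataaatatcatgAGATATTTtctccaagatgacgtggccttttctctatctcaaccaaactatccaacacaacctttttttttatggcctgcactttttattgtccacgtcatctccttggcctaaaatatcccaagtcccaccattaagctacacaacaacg
TOC1 holds 1 match, 144 bases before its annotated start.

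Light signalling genes moved less than the sulfur, jasmonate and clock lists by their medians, and their calls depended more on single libraries. Of 20 tested genes 5 rose and 1 fell, against 1.36% and 0.313% of all genes, the median was 0.22 and 19 were positive. None passed with the 6 libraries alone (10 of 20 reached an unadjusted p of 0.05 in the fit of all 9, and DESeq2 called 7 higher). Without replicate 2 of 35S-ASCO or WT replicate 1 none was called higher, and there was 1 without RNAi-ASCO replicate 2, 2 without replicate 1 of 35S-ASCO or WT replicate 3, and 3 without WT replicate 2. PIF4, a growth-promoting factor removed in light, had 49.2, 34.6 and 32.2 CPM in 35S-ASCO, against 20.7, 20.5 and 20.1 CPM in WT (log2 fold change 0.93, SE 0.138, adjusted p = 0.0184). HFR1, which holds PIF factors in check, had 13.3, 14 and 12.9 CPM in 35S-ASCO, against 7.53, 9.9 and 9.45 CPM in WT (0.56, adjusted p = 0.0288). HY5, the main promoter of light responses, had 14.2, 14.6 and 14.2 CPM in 35S-ASCO, against 10.4, 10.9 and 10.8 CPM in WT (0.42, adjusted p = 0.0326). PIF4 and HFR1 are known to work against each other. The early light-induced gene ELIP1 had a log2 fold change of 1.20 (adjusted p = 0.0354) and SPA1, a partner of the COP1 ligase, of 0.45 (adjusted p = 0.0367). The photoreceptor gene PHYA fell, with 108, 114 and 119 CPM in 35S-ASCO and 139, 135 and 138 CPM in WT (-0.27, SE 0.0506, adjusted p = 0.0351), while PHYB did not pass (0.11, adjusted p = 0.328).

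**Figure D4:**
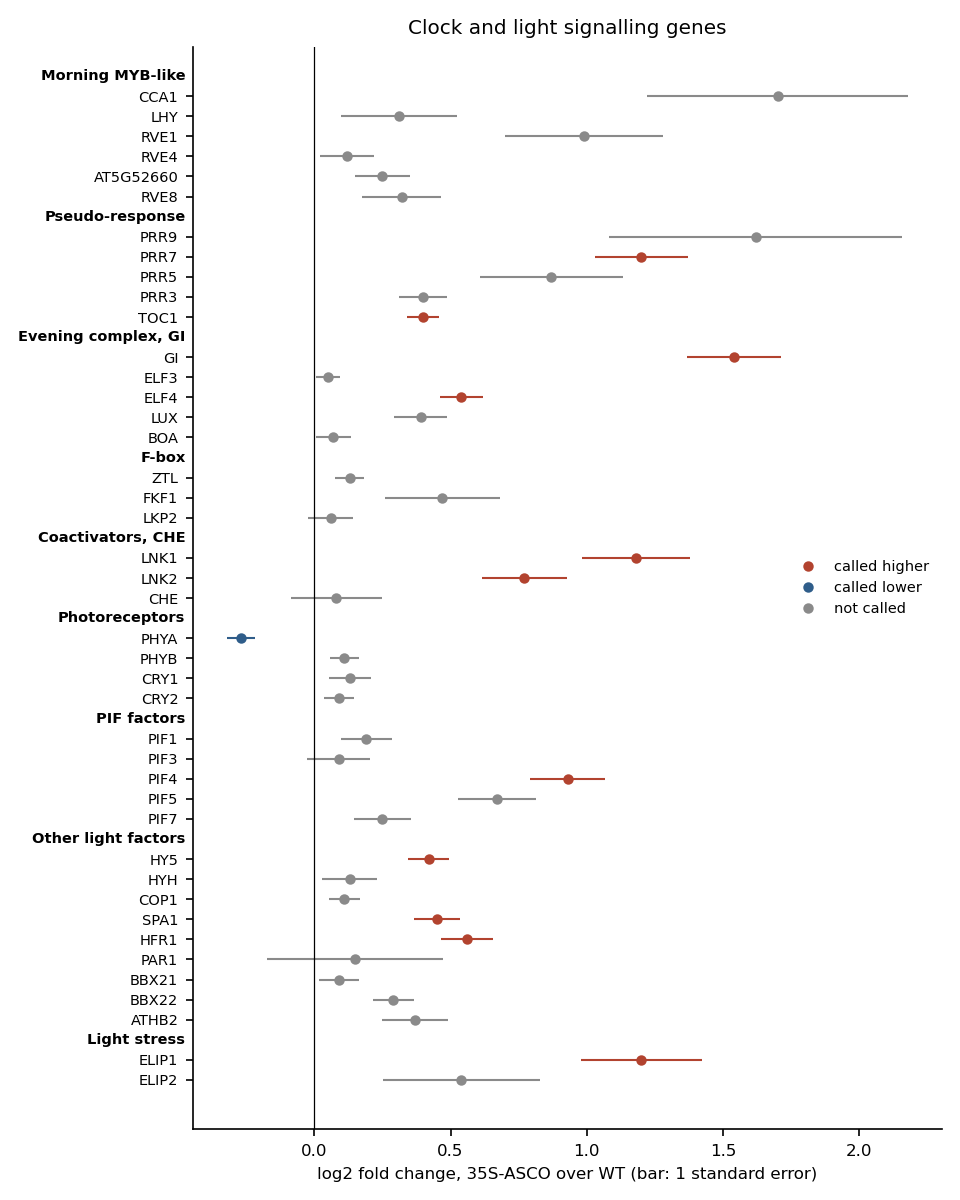
Log2 fold change of the 22 clock genes and 20 light signalling genes, 35S-ASCO over WT, with a bar of 1 standard error to each side. Red points were called higher, the blue point (PHYA) was called lower and grey points were not called. All clock genes lie right of 0, with GI, PRR7 and ELIP1 the called genes furthest from it.

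Abscisic acid and dehydration genes had smaller changes. Abscisic acid is the hormone of water deficit, sensed by PYR/PYL receptors that block PP2C phosphatases and so free SnRK2 kinases to act on ABF factors. Of 23 tested genes 4 rose and 0 fell, against 1.36% and 0.313% of all genes, with a median of 0.25 and 18 positive. None passed with the 6 libraries alone (DESeq2 on all 9 called 7), and fits without 1 library called between 0 and 3, with 0 without replicate 2 of 35S-ASCO or WT replicate 1, 1 without replicate 1 of 35S-ASCO or RNAi-ASCO replicate 2, and 2 without RNAi-ASCO replicate 3 or WT replicate 3. ABA1, an early enzyme of the pathway, had 86, 81.7 and 70.6 CPM in 35S-ASCO, against 56.9, 55.3 and 58 CPM in WT (log2 fold change 0.49, SE 0.0737, adjusted p = 0.019). The phosphatase gene PP2CA (0.50, adjusted p = 0.031), the factor ABF3 (0.52, adjusted p = 0.0383) and the breakdown enzyme CYP707A1 (0.44, adjusted p = 0.0495) rose as well. NCED3, the rate-limiting enzyme under drought, had 10.1, 4.96 and 4.74 CPM in 35S-ASCO and 3.05, 3.12 and 4.22 CPM in WT (0.95, adjusted p = 0.249). The receptor genes PYR1, PYL4, PYL5 and PYL6 had negative values between -0.71 and -0.24 and did not pass. NAC3 and RD26, NAC factors that respond to dehydration, rose. Of 84 tested NAC genes 4 rose and 1 fell, against 1.36% and 0.313% of all genes. With the 6 libraries alone 1 rose, as without replicate 1 or 2 of 35S-ASCO or RNAi-ASCO replicate 2, and 0 rose without WT replicate 1. NAC3 had 20, 15.9 and 19.2 CPM in 35S-ASCO, against 7.09, 7.44 and 9.99 CPM in WT (1.17, SE 0.161, adjusted p = 0.0155), and RD26 had 36.9, 28.2 and 26.4 CPM in 35S-ASCO, against 9.77, 11.9 and 17.9 CPM in WT (1.20, adjusted p = 0.0264).

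Cold and early stress genes showed the same sign without a call. Of 20 tested genes 19 were positive with a median log2 fold change of 0.64, yet 0 passed. 10 reached an unadjusted p of 0.05, DESeq2 called 5, and the fit of the 6 libraries called 1, RD29A. RD29A, a classical marker of cold and dehydration, had 94.2, 79.5 and 76.4 CPM in 35S-ASCO and 35.9, 37.6 and 43 CPM in WT (1.101, SE 0.268, adjusted p = 0.0725 with 9 libraries and 0.0132 with 6). ERD10, a dehydrin, had 156, 136 and 115 CPM in 35S-ASCO and 81.6, 96.9 and 99.7 CPM in WT (0.55, adjusted p = 0.0513). The CBF factors that switch on cold genes were at or below 0.815 CPM in every library. ZAT10, a zinc finger gene induced within minutes of many stresses, had 24.4, 10.4 and 6.12 CPM in 35S-ASCO and 4.52, 4.51 and 5.98 CPM in WT (1.46, adjusted p = 0.12). The touch gene TCH4 had 57.1, 203 and 85.1 CPM in 35S-ASCO and 21.5, 29.2 and 132 CPM in WT, so its values overlapped between genotypes.

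**Figure D5:**
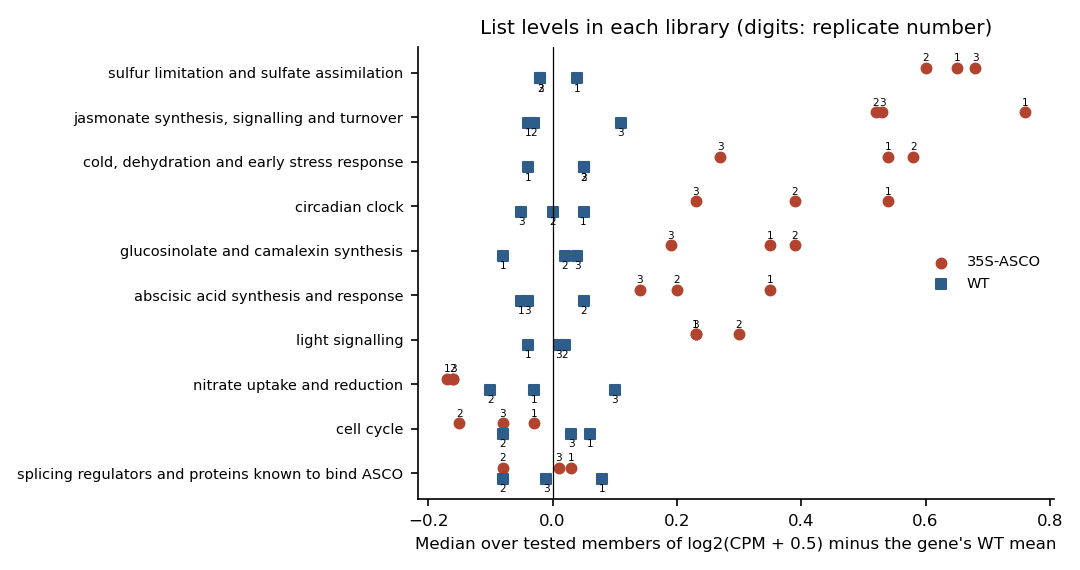
Median over the tested members of 10 lists of log2(CPM + 0.5) minus the gene's WT mean, 1 point a library, with 35S-ASCO as circles and WT as squares and the replicate number beside each. For the sulfur list the 3 overexpressor libraries lie together (0.60 to 0.68), whereas the jasmonate (0.52 to 0.76), clock (0.23 to 0.54) and cold (0.27 to 0.58) lists spread more. The cell cycle and splicing lists overlap between the genotypes.

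Lists differed in how alike the 3 overexpressor libraries were. The median deviation of the sulfur list from the WT mean was 0.65, 0.60 and 0.68 on the log2 scale in replicates 1, 2 and 3 of 35S-ASCO, against 0.04, -0.02 and -0.02 in WT. The clock list had 0.54, 0.39 and 0.23 in 35S-ASCO and 0.05, 0.00 and -0.05 in WT. The cold list had 0.54, 0.58 and 0.27 in 35S-ASCO and -0.04, 0.05 and 0.05 in WT. The light signalling list, with 0.23, 0.30 and 0.23 in 35S-ASCO and -0.04, 0.02 and 0.01 in WT, was about as even as the sulfur list, as was the salicylate list, with 0.23, 0.27 and 0.18 in 35S-ASCO and 0.03, 0.16 and -0.14 in WT. Replicate 3 of 35S-ASCO was thus the nearest to WT for the clock and cold lists and not for the sulfur list. These medians are descriptions and the difference between lists was not tested.

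Immunity genes held few calls, in both directions. Pattern receptors at the cell surface sense microbial molecules and signal through MAP kinases and the oxidase RBOHD, NBS-LRR proteins sense effectors inside the cell, and salicylate carries the later response. Of 23 tested genes of pattern sensing, 1 fell and 0 rose, against 0.313% and 1.36% of all genes. At an unadjusted p under 0.05 there were 6 (4 higher, 2 lower), and DESeq2 called 3 (2 higher, 1 lower). FLS2, the flagellin receptor, had 29.8, 31.9 and 31.8 CPM in 35S-ASCO, against 42.6, 48.1 and 46.2 CPM in WT (log2 fold change -0.55, SE 0.0555, adjusted p = 0.00351), and it passed in all fits without 1 library. Its co-receptor BAK1 had 76.7 to 77.8 CPM in 35S-ASCO and 75.3 to 80.4 CPM in WT (-0.01, adjusted p = 0.972). The receptors EFR (0.23, adjusted p = 0.539) and CERK1 (-0.10, adjusted p = 0.342) did not pass either. RBOHD had 147, 116 and 87.4 CPM in 35S-ASCO and 61.8, 80.3 and 78.8 CPM in WT (0.66, adjusted p = 0.0783), and MPK3 had 199, 163 and 114 CPM in 35S-ASCO and 98.2, 99.2 and 103 CPM in WT (0.66, adjusted p = 0.0725). The groups did not overlap for RBOHD and MPK3, as for 21.9% of all genes tested, and in both replicate 1 of 35S-ASCO was the highest.

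In the salicylate list 1 of 22 tested genes rose, against 1.36% of all genes. It was YLS9, at 5.37, 6.45 and 6.67 CPM in 35S-ASCO and 2.06, 2.94 and 2.02 CPM in WT (log2 fold change 1.37, SE 0.183, adjusted p = 0.0145). Its call was lost without replicate 2 of 35S-ASCO or WT replicate 1, and the list held 3 increases without replicate 3 of 35S-ASCO or WT replicate 2. ICS1, the entry enzyme of salicylate synthesis, had 16.3, 10.4 and 8.9 CPM in 35S-ASCO and 9.03, 8.09 and 8.82 CPM in WT (0.47, adjusted p = 0.241). Of the late marker genes, PR2 was below 0.34 CPM in every library and was tested but not called. PR1 was too low to test. Of 64 tested WRKY factors 1 rose (1.56%, close to the 1.36% of all genes). It was WRKY70, which acts where salicylate and jasmonate signals meet, with 140, 187 and 100 CPM in 35S-ASCO and 43.4, 58.1 and 55.6 CPM in WT (1.44, SE 0.259, adjusted p = 0.0326). No WRKY gene was called with the 6 libraries alone, or without replicate 1 or 2 of 35S-ASCO or WT replicate 1 or 3.

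Among 176 tested NBS-LRR genes 6 rose and 0 fell, against 1.36% and 0.313% of all genes, with a list median of 0.04. The fit of the 6 libraries gave 1, and 0 rose without replicate 2 of 35S-ASCO or WT replicate 1, 1 without replicate 1 of 35S-ASCO or RNAi-ASCO replicate 2, and 13 without replicate 3 of 35S-ASCO. RPP4, a receptor for downy mildew, had 163, 148 and 119 CPM in 35S-ASCO, against 85.6, 84.4 and 93.5 CPM in WT (log2 fold change 0.71, SE 0.105, adjusted p = 0.0184). AT3G44630 had 110, 129 and 95.5 CPM in 35S-ASCO, against 55.7, 61.4 and 68.1 CPM in WT (0.85, adjusted p = 0.0264). RPP1 (0.31, adjusted p = 0.0211) and AT3G44670 (0.33, adjusted p = 0.0288) lie near it on chromosome 3. Between 28.2% and 44.1% of the 50-base exon windows of these 4 genes occur elsewhere in the genome, so their counts are uncertain. AT4G16870, next to RPP4, had no such window and 111, 92.6 and 106 CPM in 35S-ASCO, against 71.8, 59.6 and 68.3 CPM in WT (0.63, adjusted p = 0.0155). The other NBS-LRR genes called were WRR4 (0.71, adjusted p = 0.0395) and AT4G19510 (0.30, adjusted p = 0.0435).

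Receptor-like kinases held decreases as well as increases, and lipid transfer proteins held decreases only. Of 1218 tested protein kinases 13 rose and 12 fell, against 1.36% and 0.313% of all genes. As a share, the increases were thus below that of all genes and the decreases above it. With the 6 libraries alone 1 rose and 2 fell, and fits without 1 library gave 0 to 29 higher and 1 to 13 lower, the fewest without replicate 2 of 35S-ASCO, the most higher without its replicate 3 and the most lower without WT replicate 2. Among 41 cysteine-rich receptor-like kinases CRK30 fell, at 2.37, 1.63 and 1.73 CPM in 35S-ASCO and 4.52, 3.43 and 8.34 CPM in WT (log2 fold change -1.48, adjusted p = 0.0488), CRK29 fell (-0.45, adjusted p = 0.0291) and CRK4 rose (1.44, adjusted p = 0.0495). No gene of this family was called with the 6 libraries alone, and the call of CRK30 was lost in 8 of the 9 fits without 1 library. The receptor-like protein gene RLP26 was called lower (-0.55, adjusted p = 0.0274), 1 of 50 tested, but 100% of its exon bases lie under an opposite-strand gene, so its count is uncertain. The kinase-like gene AT1G66940 fell (-0.46, SE 0.0562, adjusted p = 0.0111) and the kinase gene SR1 rose (0.72, SE 0.0912, adjusted p = 0.0127). Of 71 tested lipid transfer proteins 3 fell and 0 rose, against 0.313% and 1.36% of all genes. None fell with the 6 libraries alone or without replicate 1 or 2 of 35S-ASCO, 1 fell without RNAi-ASCO replicate 2 or 3 or WT replicate 1, and 5 without WT replicate 2. AT4G12490 had 0.119, 0.28 and 0.119 CPM in 35S-ASCO, against 1.69, 2.69 and 12 CPM in WT (-5.21, SE 0.794, adjusted p = 0.019), and its neighbour AT4G12500 had 0.19, 0.224 and 0.28 CPM in 35S-ASCO, against 0.808, 1.02 and 4.29 CPM in WT (-3.16, adjusted p = 0.0383). WT replicate 3 was the highest library for both, and 35.9% of the exon bases of AT4G12490 lie under an opposite-strand exon. Its call was lost without replicate 1 or 2 of 35S-ASCO, and that of AT4G12500 in 7 of the 9 fits without 1 library. LTP5, the third, fell slightly, to 154, 151 and 162 CPM in 35S-ASCO, against 191, 193 and 189 CPM in WT (-0.30, adjusted p = 0.0462).

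Genes of specialised metabolism rose in small sets. Of 26 genes of glucosinolate and camalexin synthesis, the sulfur-rich defence compounds of this plant family, 26 had positive values with a median of 0.33. Of them 3 rose, against 1.36% of all genes called higher. They were the regulator MYB51 with 51.4, 45.6 and 37.3 CPM in 35S-ASCO and 24, 28 and 26 CPM in WT (log2 fold change 0.78, adjusted p = 0.0336), the sulfotransferase SOT18 (0.49, adjusted p = 0.0383) and the glucosyltransferase UGT74B1 (0.30, adjusted p = 0.0488). None of the 3 passed with the 6 libraries alone (DESeq2 on all 9 called 10), and no gene of the list was called without replicate 1 or 2 of 35S-ASCO, RNAi-ASCO replicate 2 or WT replicate 1, against 7 without replicate 3 of 35S-ASCO. Without RNAi-ASCO replicate 1 it was 1 gene. Of 21 phenylpropanoid and anthocyanin genes 0 were called (2 at an unadjusted p under 0.05, 1 by DESeq2), with a median of 0.03. The camalexin gene PAD3 had 22.5, 29.1 and 27.2 CPM in 35S-ASCO and 18.6, 20.8 and 6.22 CPM in WT (0.79, adjusted p = 0.256).

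Of 47 tested cytochrome P450 genes of the CYP71A and CYP71B groups 6 rose and 0 fell, against 1.36% and 0.313% of all genes. Only 2 rose with the 6 libraries alone, as without replicate 1 of 35S-ASCO, 1 rose without replicate 2 of 35S-ASCO or WT replicate 1, and 3 without RNAi-ASCO replicate 2. CYP71B24 stood out, with 16.1, 18 and 16.2 CPM in 35S-ASCO, against 3.01, 3.84 and 1.69 CPM in WT (log2 fold change 2.54, SE 0.215, adjusted p = 0.00104). Its neighbour CYP71B3 had 17.7, 15.9 and 13.9 CPM in 35S-ASCO, against 8.59, 10 and 9.69 CPM in WT (0.74, adjusted p = 0.0209). CYP71B19 (0.91, adjusted p = 0.0298) and CYP71B20 (0.56, adjusted p = 0.0369) also lie side by side, but over 20% of their exon windows occur elsewhere in the genome. MRN1, the marneral synthase, had 19.6 to 28.9 CPM in 35S-ASCO, against 6.79, 7.23 and 2.9 CPM in WT (2.097, SE 0.277, adjusted p = 0.0143). CYP71A16, which sits beside MRN1 and oxidises its triterpene product, had 18.5, 19.3 and 17.1 CPM in 35S-ASCO, against 10.1, 9.95 and 12.2 CPM in WT (0.76, SE 0.0997, adjusted p = 0.0143). SQP1, a squalene epoxidase gene, had 12.7, 16.4 and 13.4 CPM in 35S-ASCO, against 6.65, 5.47 and 6.98 CPM in WT (1.15, SE 0.124, adjusted p = 0.0055). Of these, the calls of CYP71B24 and SQP1 were kept in every fit without 1 library, and those of MRN1 and CYP71A16 were lost without replicate 2 of 35S-ASCO or WT replicate 1.

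Of the other nutrient lists, phosphate starvation held increases and nitrate reduction a decrease. Of 18 tested genes of phosphate starvation 3 rose and 0 fell, against 1.36% and 0.313% of all genes, with a median of 0.215. SPX1, a phosphate sensor, had 28.6, 22.3 and 18.7 CPM in 35S-ASCO, against 9.77, 11.9 and 11.3 CPM in WT (log2 fold change 1.07, SE 0.152, adjusted p = 0.0163). The acid phosphatase PAP17 had 41, 30.3 and 25.6 CPM in 35S-ASCO, against 15.2, 16.7 and 13.5 CPM in WT (1.09, adjusted p = 0.0254). PHO2, which limits phosphate uptake, rose as well (0.45, adjusted p = 0.0163). The main regulator PHR1 did not pass (-0.08, adjusted p = 0.414), and the uptake transporter PHT1;1 had 30.6, 40.1 and 43.2 CPM in 35S-ASCO and 51.5, 48.1 and 56.6 CPM in WT (-0.46, adjusted p = 0.0766). None of the 3 passed with the 6 libraries alone (DESeq2 on all 9 called 5 higher), and none without replicate 2 of 35S-ASCO or WT replicate 1. Without WT replicate 3 there were 2.

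Of 17 tested nitrate genes 1 fell, against 0.313% of all genes called lower, and 2 had positive values. The median was -0.145, and 6 were lower at an unadjusted p under 0.05. NIA1, a nitrate reductase, had 100, 92 and 69.7 CPM in 35S-ASCO, against 156, 138 and 222 CPM in WT (log2 fold change -0.98, SE 0.184, adjusted p = 0.0369). The call was lost in 7 of the 9 fits without 1 library and held without WT replicate 2 or 3. NIA2, the main nitrate reductase, had 576, 588 and 478 CPM in 35S-ASCO and 809, 730 and 1027 CPM in WT (-0.64, adjusted p = 0.0525). WT replicate 3 was the highest library for both. The iron genes BHLH100 and IRT1 overlapped between the genotypes. BHLH100, an iron deficiency regulator, had 116, 52.3 and 76.6 CPM in 35S-ASCO and 22.7, 139 and 31.6 CPM in WT, and IRT1, the iron transporter of the root, had 40.3, 60.6 and 44.8 CPM in 35S-ASCO and 29.4, 118 and 60.4 CPM in WT, with WT replicate 2 the highest in each. FRU (also FIT), the factor that turns on iron uptake, fell, at 7.06, 7.93 and 8.84 CPM in 35S-ASCO and 11.6, 15.3 and 11.1 CPM in WT (-0.68, adjusted p = 0.039), 1 of 19 tested iron genes. Without replicate 1 or 2 of 35S-ASCO, any RNAi-ASCO library, or WT replicate 1 or 2 it was not called.

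Growth hormone lists held few calls. Of 20 auxin transport and lateral root genes 0 were called (5 at an unadjusted p under 0.05, 1 by DESeq2), and likewise 0 of 20 brassinosteroid and gibberellin genes (4 and 1). The medians were -0.07 and 0.03. Of 23 cytokinin genes 1 fell, IPT3, a cytokinin synthesis enzyme, with 2.78, 2.35 and 3.35 CPM in 35S-ASCO, against 5.47, 5.13 and 5.39 CPM in WT (log2 fold change -0.89, SE 0.127, adjusted p = 0.0163). Among early auxin genes IAA1 rose (1.04, adjusted p = 0.0383, 1 of 31 Aux/IAA genes) and GH3.3, which conjugates auxin, fell (-0.82, adjusted p = 0.0383, 1 of 9 GH3 genes). Of 67 SAUR genes SAUR20 rose (1.57, adjusted p = 0.0462) and AT2G21210 (-0.71, adjusted p = 0.049) and AT4G34750 (-0.49, adjusted p = 0.0341) fell. Among SAUR genes 10 rose without replicate 3 of 35S-ASCO and none without any other single library. The Aux/IAA and GH3 families held no call without replicate 1 or 2 of 35S-ASCO, any RNAi-ASCO library or WT replicate 1. With the 6 libraries alone no cytokinin, Aux/IAA, GH3 or SAUR gene was called. Over all genes 1.36% rose and 0.313% fell. GASA1, a gibberellin-responsive peptide gene, had 32.6, 52.9 and 50.1 CPM in 35S-ASCO, against 98.8, 99.9 and 82.3 CPM in WT (-1.05, SE 0.172, adjusted p = 0.0254).

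Cell wall and cell cycle genes showed little. Of 30 tested XTH genes XTH19 rose, at 28.4, 30.1 and 24.6 CPM in 35S-ASCO and 16.9, 19.4 and 16.8 CPM in WT (log2 fold change 0.64, SE 0.0864, adjusted p = 0.0155), and none of 27 expansin genes was called (4 at an unadjusted p under 0.05, 1 by DESeq2). PGIP2, which inhibits fungal pectinases, rose (0.80, SE 0.106, adjusted p = 0.0143). Of 21 cell cycle genes 0 were called (3 at an unadjusted p under 0.05, 1 by DESeq2), with a median of -0.06. In the flowering list the floral integrator SOC1, at 51.5, 48.3 and 48.5 CPM in 35S-ASCO and 31.9, 39.1 and 31.8 CPM in WT (0.52, adjusted p = 0.0378), and the repressor SVP (0.26, adjusted p = 0.0411) rose. They are 2 of 18 tested, against 1.36% of all genes called higher. None of the list rose with the 6 libraries alone, or without replicate 1 or 2 of 35S-ASCO, RNAi-ASCO replicate 2 or 3, or WT replicate 1 or 3. FT, the mobile flowering signal, had 2.5, 2.86 and 2.47 CPM in 35S-ASCO and 1.8, 1.92 and 1.63 CPM in WT (0.54, adjusted p = 0.166).

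Because ASCO is known to bind splicing proteins, the genes of these proteins were listed too, and their total transcript levels showed no call. Of 28 tested genes 0 passed, 5 reached an unadjusted p of 0.05 (3 higher, 2 lower), DESeq2 called 2 and the median was -0.015. SUS2 (also PRP8A), the core spliceosome protein, had 349 to 360 CPM in 35S-ASCO and 329 to 365 CPM in WT (log2 fold change 0.05, adjusted p = 0.682). The RNA-binding protein gene AT1G76940 had 21, 19 and 19.8 CPM in 35S-ASCO and 20.5, 20.1 and 20 CPM in WT (-0.01, adjusted p = 0.919). AT1G21320 was low, with 0.19, 0.252 and 0.324 CPM in 35S-ASCO and 0.514, 0.371 and 0.504 CPM in WT (-0.83, adjusted p = 0.177). GRP7, a clock-regulated RNA-binding protein gene, had 2722, 2304 and 2181 CPM in 35S-ASCO and 2085, 2000 and 1595 CPM in WT (0.34, adjusted p = 0.141). Of 275 tested genes annotated as RNA helicases or RNA-binding proteins 1 rose (AT1G24575, 0.51, adjusted p = 0.0435) and 1 fell (AT4G13070, -0.39, adjusted p = 0.0423). Of 247 pentatricopeptide repeat genes 2 fell (AT1G64580, -0.31, adjusted p = 0.0495, and AT2G19280, -0.30, adjusted p = 0.0408). The shares called among RNA-binding and pentatricopeptide repeat genes, 0.727% and 0.81%, were below the 1.67% of all genes.

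Protein-folding and organelle genes were mostly uncalled. BIP3, an inducible chaperone of the endoplasmic reticulum, had 4.05, 4.51 and 3.19 CPM in 35S-ASCO, against 1.07, 0.848 and 0.347 CPM in WT (log2 fold change 2.42, SE 0.351, adjusted p = 0.0173). BIP1 (0.03, adjusted p = 0.872) and BIP2 (0.08, adjusted p = 0.628), its constitutive relatives, did not pass, and BIP3 was the 1 gene called of 18 in the heat shock and unfolded protein list. In the oxidative stress list 1 of 19 rose, against 1.36% of all genes called higher. It was AT2G21640, a marker of oxidative stress (1.01, adjusted p = 0.0347). None of the list rose with the 6 libraries alone. Among fits without 1 library it held increases only without replicate 3 of 35S-ASCO or WT replicate 2. AOX1A, the alternative oxidase, had 86.8, 60.9 and 51.2 CPM in 35S-ASCO and 43.5, 40.9 and 30 CPM in WT (0.80, adjusted p = 0.062). Of 55 nuclear photosystem genes 0 were called (19 at an unadjusted p under 0.05, 5 by DESeq2), with 42 positive. Of 80 tested chloroplast-encoded genes 0 were called (8 at an unadjusted p under 0.05, 1 by DESeq2), and their median was -0.245. Their summed level was 388, 436 and 428 CPM in 35S-ASCO and 548, 387 and 416 CPM in WT, so WT replicate 1 was the high library. Ribosomal protein genes had mostly small negative values, with 26 of 336 positive, a median of -0.117 and 108 lower at an unadjusted p under 0.05, while 1 was called and rose (AT3G14595, 0.37, adjusted p = 0.0395). Their summed level was 44393, 42522 and 45772 CPM in 35S-ASCO and 50717, 44775 and 49837 CPM in WT, with replicate 3 of 35S-ASCO and replicate 2 of WT overlapping.

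Further genes with large changes belong to none of these groups. FAMT, a carboxyl methyltransferase, had 6.7, 2.16 and 1.94 CPM in 35S-ASCO, against 0.22, 0.17 and 0.504 CPM in WT (log2 fold change 3.63, SE 0.673, adjusted p = 0.0354). CML41, a calmodulin-like calcium sensor, had 4.2, 2.63 and 1.29 CPM in 35S-ASCO, against 0.698, 0.604 and 0.208 CPM in WT (2.48, SE 0.48, adjusted p = 0.0383). AT5G13210, of uncharacterized product, had 18.7, 6.47 and 5.4 CPM in 35S-ASCO, against 2.42, 2.6 and 2.71 CPM in WT (1.997, adjusted p = 0.049). All 3 were highest in replicate 1 of 35S-ASCO, and their calls were lost in 6, 8 and 7 of the 9 fits without 1 library. AT3G54530, uncharacterized, had 1.64, 1.63 and 1.38 CPM in 35S-ASCO and 0.771, 0.35 and 0.139 CPM in WT (2.05, adjusted p = 0.0464) and was called in no fit without 1 library.

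Among further decreases, PP2-A6, a phloem protein gene, had 3.61, 3.7 and 3.72 CPM in 35S-ASCO, against 6.24, 7.81 and 9.55 CPM in WT (log2 fold change -1.11, SE 0.16, adjusted p = 0.0172). Its overexpressor libraries hardly differed from each other, and the call was lost only without replicate 2 of 35S-ASCO. AT2G28270, a C1 domain gene, had 0.372, 0.504 and 0.529 CPM in 35S-ASCO, against 1.25, 1.07 and 2.85 CPM in WT (-1.91, adjusted p = 0.0383), and the kinase gene AT4G14780 had 0.285, 0.616 and 0.453 CPM in 35S-ASCO, against 0.955, 1.11 and 2.29 CPM in WT (-1.79, adjusted p = 0.0495). WT replicate 3 was the highest library for both, and their calls were lost in 7 and 8 of the 9 fits without 1 library. The efflux carrier gene AT5G19700 (-1.46, adjusted p = 0.0395) and the pseudogene AT1G43590 (-1.46, adjusted p = 0.0184) complete the 10 largest decreases with a mean of at least 1 CPM in WT. The calls of AT5G19700 and AT1G43590 were lost in 8 and 3 of these fits. The NAC gene NAC063 fell too, but from 3, 1 and 3 pairs in 35S-ASCO no fold change can be read. AT1G09980, the esterase gene, had 31.1, 33 and 31.4 CPM in 35S-ASCO, against 50.8, 55.4 and 51.3 CPM in WT (-0.73, SE 0.054, adjusted p = 0.00062), a small decrease that passed in every fit.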

How the data were processed

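RNA sequencing was done on 9 seedling libraries, 3 from 35S-ASCO, 3 labelled RNAi-ASCO and 3 from WT. Per the labels, RNA was selected for polyadenylation and libraries were stranded and paired-end. Per the submitters' processing notes, TopHat2, Bowtie2 and build TAIR10 were used, without their roles. The deposited files hold raw read and pair counts for 33602 gene models. Per the file headers, a program named sam2pkm counted pairs whose mates align properly to 1 model on opposite strands, treated singletons as unmapped and removed reads with equally good alignments elsewhere, which lowers counts of near-identical genes. Whether the count used strand is not given in the sources used here, so genes that overlap an opposite-strand exon are uncertain.

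From the counts of pairs, genotypes were compared by the quasi-likelihood test of edgeR 4.0.16 (R 4.3.3). All 9 libraries entered 1 fit with genotype as factor, TMM scaling and the filterByExpr filter. A gene was called at a Benjamini-Hochberg adjusted p under 0.05 among the 22719 genes kept. Levels are TMM-scaled CPM. Standard errors come from the F statistic. Alternatives were DESeq2 1.42.0, other scalings and filters, other sets of libraries, thinned counts, read counts and a replicate block. Replicate numbers come from the sample titles. Over all genes tested, same-numbered libraries of 35S-ASCO and WT did not deviate together (correlations -0.012, 0.048 and 0.010). This does not exclude pairing in some genes. The main fit used no block. The fit was tested on simulated data.

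Names, products and coordinates are from RefSeq's annotation of TAIR10.1, in which 32835 identifiers (97.7%) matched. Promoter windows are the 300 bases before each annotated start. Shared sequence was searched with 50-base exon windows. The comparison, the gene lists and families, the motifs, and the naming rule were chosen with earlier results of these data known. GAGAC was searched after the files were seen. The rule names AT1G67105, the 10 largest called increases and decreases without overlap that reach 1 CPM on average in the higher group, and up to 4 called members a list by smallest p. It also names the list's known entry points. Further genes are named so that each small count is accounted for or because they passed in all 9 fits without 1 library, and those were chosen after their values were seen. Some promoter sequences are not reported here.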

Additional observations from a re-analysis of the deposited data

How the results depend on the processing

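The number of calls was not stable across settings. The direction of the called genes was, but this was largely fixed in advance, since none overlapped between the genotypes. DESeq2 called 1305 genes (988 higher, 317 lower in 35S-ASCO), 375 of the 379 among them. The 6 libraries alone gave 64 (54 higher, 10 lower). Leaving out the 2 RNAi-ASCO libraries labelled 4 days is in effect the same fit, since the 1 left has no replicate. The 6 libraries with a replicate block, added after seeing the data, gave 9 (7 higher, 2 lower). Adjusted p under 0.01 left 18 (16 higher, 2 lower), and a log2 fold change of 1 or more in size left 83 (68 higher, 15 lower). Counts thinned to the smallest library gave 274, of which 40 were lower. Leaving out 1 library in turn gave between 25 and 611 calls, between 20 and 528 higher and between 3 and 134 lower. The lowest total came without WT replicate 1 and the highest without replicate 3 of 35S-ASCO. Why single libraries weigh so much was not tested.

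The other settings kept the total within 1.5 times of 379. They were scaling by relative log expression (386) or by upper quartile (322), testing without a filter (512), a minimum of 1 CPM in 3 libraries (369) and counts of reads rather than pairs (375). The labels do not say whether replicate numbers pair the libraries. With a replicate block in the fit of 9 libraries 342 genes passed (274 higher, 68 lower), 254 of the 379 among them. AT1G67105 passed under every setting, with log2 fold changes between 9.55 (read counts) and 10.18 (without WT replicate 1). Of the 67 single genes followed through the alternatives, 67 stayed past the threshold with DESeq2, 20 with the 6 libraries alone, and 13 without WT replicate 1. None reversed under any setting, but as called genes without overlap between the genotypes they could hardly do so. With 3 libraries a genotype, a gene that did not pass is not shown to be unchanged, and genes under about 0.111 CPM lie at the counting floor of the smallest library.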

Other observations

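Some called genes lay beside each other. With at most 2 gene models between neighbours, 47 of the 379 called genes fell into 23 runs of the same direction, 20 of them higher in 35S-ASCO and 3 lower. Among the higher runs are the allene oxide cyclase genes AOC1 and AOC2, the sulfur limitation genes LSU3 and LSU1, the P450 genes CYP71B3 and CYP71B24, the triterpene genes CYP71A16 and MRN1, and the jasmonate genes ORA47 and JAZ2. The secreted protein genes AT4G12490 and AT4G12500 form a lower run. No comparison with chance was made, and these neighbours include duplicated genes of like sequence.

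All other letter strings searched in the 300 bases before the start are given here, on both strands. TGACG, the core bound by TGA-type bZIP factors, was in 28.9% of the windows of called higher genes, 22.5% of those of called lower genes and 21.9% of those of all genes tested. The W-box core TTGAC, bound by WRKY factors, was in 56.2%, 59.2% and 50.5% of the same sets. The DREB core CCGAC was in 13%, 8.45% and 14.7%, and TATAAA in 55.8%, 52.1% and 52%. The heat shock element GAACNNTTC was in 1.95%, 8.45% and 2.35%, that is in 6 of the 71 windows of called lower genes. The GCC box GCCGCC was in 2.92%, 0% and 2.36%, the stress string CGCGTT in 3.25%, 2.82% and 3.23%, and GAGAC in 24.4%, 28.2% and 30%. These shares are descriptions, without a test.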
